A study of Homo sapiens with 6 samples.

Results

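Matrix metalloproteinases (MMPs) and ADAMTS enzymes are zinc-dependent proteases that cut the extracellular matrix, and the tissue inhibitors of metalloproteinases (TIMPs) block them. The members were taken as every protein-coding row of the gene count table whose symbol was MMP, ADAMTS or TIMP followed by its number, which gave 51 of 63677 rows and 46 distinct genes. Of these rows, 41 had at least 1 count and 34, each a different gene, held enough counts to be tested. The remaining 12 genes were not tested, among them the collagenases MMP1, MMP8 and MMP13.

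The libraries hold RNA of human embryonic stem cells, from a line called Royan H6 (RH6) and a line called Royan H5 (RH5), each kept both as naive cells, which resemble the preimplantation epiblast, and as primed cells, the usual form of such lines. There were 2 naive RH6 libraries at passage 10, 2 naive RH5 libraries at passage 17, 1 primed RH6 library at passage 20 and 1 primed RH5 library at passage 16. The naive cells came from a 2a2iL induction and were grown in 2iL medium, with passage by trypsin every few days, whereas the primed cells were grown with bFGF, so that medium and state cannot be told apart. All cells shared a feeder layer of inactivated mouse embryonic fibroblasts, themselves a source of these enzymes, and the labels do not say whether feeder cells were removed before RNA isolation. The labels tie no library to its own culture, so the variation between naive duplicates may be purely technical. The p-values below rest on that variation wholly or in part.

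Most MMPs are made as inactive proenzymes, which are activated when their prodomain is cut by plasmin, furin-like convertases or other MMPs. Membrane-type MMPs sit on the cell surface, where MMP14, with TIMP2 as a bridge, activates the gelatinase MMP2. ADAMTS enzymes are secreted proteases with thrombospondin repeats, and subgroups of them cut large proteoglycans such as versican and aggrecan, trim procollagens or process von Willebrand factor.

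Total counts were 13457979 to 14663982 per library. The members took 0.0908% to 0.114% of the counts in the naive libraries and 0.0582% to 0.0647% in the primed libraries. Pluripotency markers were abundant in both states, with summed levels of 4066 to 5732 CPM, counts scaled to the size of the library, in naive and 5910 and 6212 CPM in primed libraries, LIN28A being the largest part. Of these 7 markers 0 were higher in naive cells and 3 were lower, SOX2 (-1.33), SALL4 (-0.75) and DPPA4 (-0.66, all log2 fold changes). Among genes known to mark the naive state, 7 of 9 tested were higher in naive cells and 0 were lower, although KLF17 reached only 0 to 1.34 CPM in naive libraries and DPPA5 had 1 count in all. All 7 tested markers of the primed state were lower in naive cells. Mesoderm markers were higher in naive cells for 4 of 8 tested genes and lower for 0, with sums of 373 to 690 CPM in naive and 102 and 266 CPM in primed libraries. Most of the primed sums was KDR, which was not called, at 74.9 CPM in primed RH6 and 229 CPM in primed RH5. The 4 higher genes were HAND1 (6.67), APLNR (6.15), T (5.34) and MIXL1 (5.02, all log2 fold changes). Neural markers were lower for 5 of 8, with sums of 72.2 to 152 CPM in naive and 339 CPM or more in primed libraries.

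RefSeq (GRCh38.p14) gave a promoter for 27 of the 46 genes, 19 of them tested and 8 not, and the 250 bases before each start were searched on both strands for 3 motifs. These were GGGCGG, the GC box bound by Sp1-like factors, TATAAA, the TATA box, and TGANTCA, the site of the AP-1 factors that are known to drive several MMP genes. A GC box stood in 18 of the 19 tested members and in 1 of the 8 that were not tested, against 42.6% of all 35116 promoters. A TATA box stood in 1 of the 19 tested members and in 6 of the 8 not tested, against 10.7% of all promoters. An AP-1 site stood in 1 of the 19 (ADAMTS12) and in 3 of the 8 (MMP7, MMP10 and MMP20), against 6.57% of all promoters. The genes without a promoter here, and so not searched, included MMP1, MMP2, MMP3, MMP9, MMP13, ADAMTS1, ADAMTS5 and ADAMTS9. The shares therefore do not speak for these genes. A match describes the letters in this window and says nothing of whether a factor binds there.

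These groups were not exclusive, since ADAMTS10 had both a TATA box and GC boxes, ADAMTS12 both an AP-1 site and a GC box, and ADAMTS6 and MMP27 none of the motifs. Promoters of 4 members are shown as examples, with motif matches in capitals, of which none overlapped another. MMP14 and MMP24, membrane-type genes that differed between the states in opposite directions, both have GC boxes. MMP7 and MMP10, genes at or near 0 counts, both have an AP-1 site at position -67 from the start, and a TATA box at -30 in MMP7 and at -31 in MMP10.
MMP14 (chr14:22836335-22836584, + strand): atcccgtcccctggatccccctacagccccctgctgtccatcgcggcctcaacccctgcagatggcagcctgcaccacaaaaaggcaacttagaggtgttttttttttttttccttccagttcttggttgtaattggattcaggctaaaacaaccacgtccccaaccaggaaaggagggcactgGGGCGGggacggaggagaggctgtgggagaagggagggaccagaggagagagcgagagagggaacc
MMP24 (chr20:35226440-35226689, + strand): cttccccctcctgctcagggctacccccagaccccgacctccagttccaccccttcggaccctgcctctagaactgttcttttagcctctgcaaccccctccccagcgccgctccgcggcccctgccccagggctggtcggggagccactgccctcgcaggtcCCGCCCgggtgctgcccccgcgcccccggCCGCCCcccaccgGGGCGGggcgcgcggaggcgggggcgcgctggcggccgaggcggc
MMP7 (chr11:102530748-102530997, - strand): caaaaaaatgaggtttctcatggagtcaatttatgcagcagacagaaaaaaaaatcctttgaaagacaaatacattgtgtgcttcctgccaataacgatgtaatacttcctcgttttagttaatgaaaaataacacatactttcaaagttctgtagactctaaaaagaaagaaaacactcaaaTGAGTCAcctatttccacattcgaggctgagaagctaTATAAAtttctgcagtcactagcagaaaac
MMP10 (chr11:102780629-102780878, - strand): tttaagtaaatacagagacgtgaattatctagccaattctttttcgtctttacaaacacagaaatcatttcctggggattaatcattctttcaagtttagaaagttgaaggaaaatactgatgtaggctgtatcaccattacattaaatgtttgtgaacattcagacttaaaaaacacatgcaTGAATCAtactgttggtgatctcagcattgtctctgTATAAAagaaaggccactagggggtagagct

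The genes that were not tested were nearly silent in both states. MMP7, MMP8, MMP26 and MMP27, and the protein-coding row of MMP12, had 0 counts in all 6 libraries. Over the pooled total of 84301292 counts, a count of 0 allows a level of up to 0.0356 CPM (3 counts, counting error only). MMP10 had 34 counts over the 6 libraries, MMP23B 29, MMP1 15, MMP21 12, MMP3 11, MMP13 10 and MMP20 3. The 9 neighbouring MMP genes on chromosome 11, which encode collagenases, stromelysins, a matrilysin and enamelysin, together had, in their protein-coding rows, 7 and 10 counts in naive RH6, 19 and 13 in naive RH5, 9 in primed RH6 and 15 in primed RH5. MMP12 enters this sum at 0, and no test was made on it. The other rows at 0 were second identifiers of ADAMTS13, ADAMTS10, MMP13, MMP3 and MMP28.

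The naive libraries were compared with the primed libraries over both lines, with the line as a covariate, by edgeR's quasi-likelihood test with Benjamini-Hochberg adjustment over all 19434 genes tested. Genes with an adjusted p under 0.05 are described as called, and log2 fold changes are of naive over primed, given ± SE. Of the 34 tested members, 12 were higher in naive cells, 10 were lower and 12 did not pass, where 25.7% of all genes tested were called, 12.1% higher and 13.6% lower. The members' median log2 fold change was 0.14, against -0.01 for all genes. All 4 naive libraries lay above both primed libraries for 12 members and below both for 12, where 44.3% of all genes showed one or the other, 21.5% above and 22.8% below. MMP11 and MMP28 passed the filter on low counts through 1 state alone, so that a difference in them was a condition of being tested. The members lower in naive cells numbered 5 without the first naive RH6 library and 6 without each other naive library. With the naive duplicates of each line summed, 1 member was higher and 2 were lower, the calls of MMP2, MMP25 and ADAMTS10 alone being kept. Over all genes, calls numbered 2961 to 3345 with 1 naive library left out and 1127 with the duplicates summed, against 4996. Without the line term, the calls of MMP28 (adjusted p = 0.0546), ADAMTS5 (0.0697), ADAMTS12 (0.0521), ADAMTS14 (0.157) and ADAMTS19 (0.0934) were lost, and ADAMTS14 was also lost with DESeq2 (0.103). In bulk RNA, fewer cells that make a transcript and less transcript per cell cannot be told apart.

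The gelatinases, which cut denatured collagen and basement membrane collagen, were both higher in naive cells. MMP2 (ENSG00000087245) had 250.2 and 241 CPM in naive RH6 and 159.7 and 139 CPM in naive RH5, against 23.1 CPM in primed RH6 and 19.7 CPM in primed RH5. Every naive library was above both primed libraries, and the 2 naive RH6 libraries were the highest. The log2 fold change of MMP2 was 3.16 ± 0.16 (adjusted p = 8.96e-05 by edgeR), and by line it was 3.41 in RH6 and 2.92 in RH5. MMP9 (ENSG00000100985) stood far lower, with 3.22 and 4.41 CPM in naive RH6 and 2.96 and 2.38 CPM in naive RH5, against 0.736 CPM in primed RH6 and 0.867 CPM in primed RH5. The groups did not overlap, and the log2 fold change was 1.99 ± 0.36 (adjusted p = 0.00796).

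**Figure D1:**
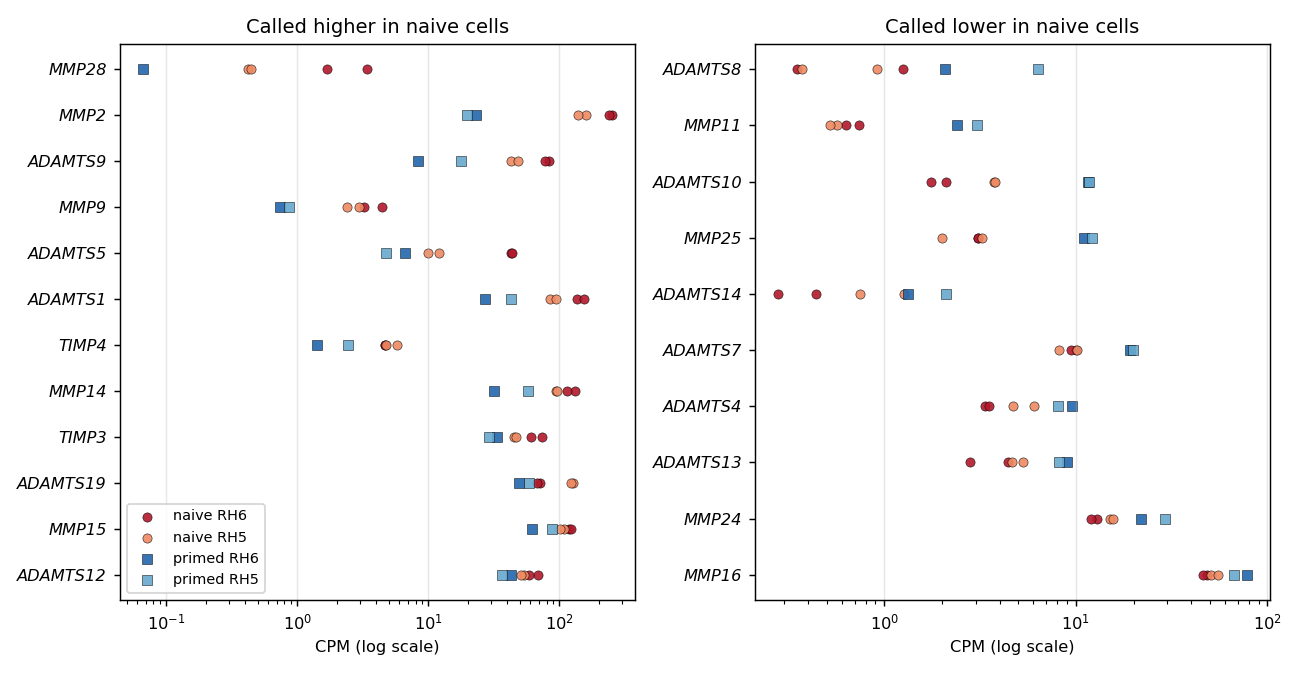
CPM on a log scale for the 12 members called higher (left) and the 10 called lower (right) in naive against primed cells over both lines, 1 point per library, ordered by log2 fold change. Circles are naive and squares are primed libraries; the primed RH5 library had 0 counts of MMP28 and is not drawn, and MMP2 shows the widest gap among the abundant members, with 139 to 250.2 CPM in naive and 19.7 and 23.1 CPM in primed libraries.

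Membrane-type MMPs moved in both directions, with 2 of 6 higher and 3 lower. MMP14 (ENSG00000157227), the activator of MMP2, had 132 and 114 CPM in naive RH6 and 94.4 and 96.2 CPM in naive RH5, against 31.9 CPM in primed RH6 and 57.9 CPM in primed RH5. MMP15 (ENSG00000102996), a close relative that also activates MMP2, had 119 and 123 CPM in naive RH6 and 109 and 101 CPM in naive RH5, against 61.5 CPM in primed RH6 and 87.2 CPM in primed RH5. Neither gene's groups overlapped, and in both the primed RH5 library lay closer to the naive libraries than the primed RH6 library did. The log2 fold changes were 1.29 ± 0.27 for MMP14 (adjusted p = 0.0143) and 0.61 ± 0.17 for MMP15 (adjusted p = 0.038). These values rest on the primed libraries: without primed RH6 they were 0.73 for MMP14 and 0.28 for MMP15, and without primed RH5 they were 1.97 and 1.01. MMP14 did not pass without the second naive RH6 library (adjusted p = 0.0522), and MMP15 did not pass without the primed RH6 library (0.102), without the first (0.0897) or second (0.103) naive RH6 library, or without the first naive RH5 library (0.0904).

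The lower membrane-type genes were MMP16, MMP24 and MMP25. MMP25 (ENSG00000008516), a lipid-anchored enzyme best known from leukocytes, had 3.08 and 3.08 CPM in naive RH6 and 3.25 and 2.01 CPM in naive RH5, against 11 CPM in primed RH6 and 12.1 CPM in primed RH5. MMP24 (ENSG00000125966), known from the nervous system and as a protease of N-cadherin, had 12.9 and 12 CPM in naive RH6 and 15 and 15.7 CPM in naive RH5, against 21.9 CPM in primed RH6 and 29 CPM in primed RH5. MMP16 (ENSG00000156103), which can activate MMP2, had 48.2 and 46.1 CPM in naive RH6 and 51.0 and 55.3 CPM in naive RH5, against 78.0 CPM in primed RH6 and 67.2 CPM in primed RH5. In all 3 genes every naive library was below both primed libraries. Log2 fold changes were -2.02 ± 0.23 for MMP25 (adjusted p = 0.00149), -0.87 ± 0.13 for MMP24 (adjusted p = 0.00376) and -0.54 ± 0.12 for MMP16 (adjusted p = 0.0191). MMP16 did not pass without the primed RH6 library (log2 fold change -0.33, adjusted p = 0.0604), without the first (0.0628) or second (0.0709) naive RH6 library, or without the first naive RH5 library (0.066). MMP17, the other lipid-anchored member, ranged from 5.14 to 6.93 CPM in naive libraries and had 6.29 and 6.21 CPM in primed libraries, a log2 fold change of -0.15 ± 0.21 that did not pass (adjusted p = 0.644).

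Of the remaining MMPs, MMP28 differed in one direction and MMP11 in the other. MMP28 (ENSG00000129270), or epilysin, had 3.43 and 1.69 CPM in naive RH6 and 0.423 and 0.447 CPM in naive RH5, against 0.0669 CPM in primed RH6 and 0 in primed RH5. The primed value was 1 count in all, against 84 counts over the naive libraries, a ratio of 43.6 after scaling for depth with a counting interval of 7.61 to 1741 (95%, exact, conditional on the total). MMP28 passed the filter on low counts through the 2 naive RH6 libraries alone. With the first or the second of them left out, or with the naive duplicates summed, it was not tested. MMP28 was called higher (adjusted p = 0.00499), and not when the primed RH6 library was left out (adjusted p = 0.0513). MMP11 (ENSG00000099953), or stromelysin-3, which furin activates inside the cell, had 0.63 and 0.734 CPM in naive RH6 and 0.564 and 0.521 CPM in naive RH5, against 2.41 CPM in primed RH6 and 3.03 CPM in primed RH5. Its groups lay apart at these low levels (log2 fold change -2.14 ± 0.32, adjusted p = 0.00408). MMP11 passed the filter on low counts through the primed libraries alone, so that a difference was a condition of being tested. MMP19, which cuts basement membrane proteins, had 2.87 and 2.50 CPM in naive RH6 and 1.27 and 1.79 CPM in naive RH5, against 0.803 CPM in primed RH6 and 2.17 CPM in primed RH5. Its groups overlapped and it was not called (0.48 ± 0.52, adjusted p = 0.552).

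Among the ADAMTS enzymes that cut proteoglycans, ADAMTS1, ADAMTS5 and ADAMTS9 were higher in naive cells, ADAMTS4 and ADAMTS8 were lower, and ADAMTS15 and ADAMTS20 did not pass. ADAMTS1 (ENSG00000154734), a protease of versican and aggrecan, had 137 and 154 CPM in naive RH6 and 85.1 and 94.2 CPM in naive RH5, against 27.2 CPM in primed RH6 and 42.5 CPM in primed RH5. ADAMTS9 (ENSG00000163638), which also cuts versican, had 83.2 and 78.0 CPM in naive RH6 and 42.7 and 47.9 CPM in naive RH5, against 8.29 CPM in primed RH6 and 17.8 CPM in primed RH5. ADAMTS5 (ENSG00000154736), the main aggrecan-cutting enzyme of mouse cartilage, had 42.9 and 43.5 CPM in naive RH6 and 12 and 9.98 CPM in naive RH5, against 6.62 CPM in primed RH6 and 4.77 CPM in primed RH5. In all 3 genes the naive libraries lay above the primed libraries, and naive RH6 lay above naive RH5. The log2 fold changes were 2.20 ± 0.42 for ADAMTS9 (adjusted p = 0.0101), 1.96 ± 0.34 for ADAMTS5 (adjusted p = 0.00742) and 1.69 ± 0.30 for ADAMTS1 (adjusted p = 0.00749). Without the primed RH6 library these were 1.35 for ADAMTS9, 1.21 for ADAMTS5 and 1.08 for ADAMTS1, all still called, and without the primed RH5 library they were 3.31 for ADAMTS9, 2.73 for ADAMTS5 and 2.45 for ADAMTS1.

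ADAMTS4 (ENSG00000158859), another aggrecan-cutting enzyme, had 3.36 and 3.52 CPM in naive RH6 and 6.07 and 4.69 CPM in naive RH5, against 9.57 CPM in primed RH6 and 8.09 CPM in primed RH5. ADAMTS8 (ENSG00000134917), which can also cut aggrecan, was scarcer, with 0.35 and 1.25 CPM in naive RH6 and 0.917 and 0.372 CPM in naive RH5, against 2.07 CPM in primed RH6 and 6.36 CPM in primed RH5. Both genes had all naive libraries below both primed libraries, and for ADAMTS8 the primed RH5 library stood highest. Log2 fold changes were -2.41 ± 0.60 for ADAMTS8 (adjusted p = 0.0257) and -1.04 ± 0.26 for ADAMTS4 (adjusted p = 0.0251). ADAMTS8 did not pass without primed RH5 (-1.35, adjusted p = 0.139), the first naive RH6 library (0.0689), or the first (0.0902) or second (0.0705) naive RH5 library. ADAMTS4 did not pass without primed RH6 (-0.58, adjusted p = 0.106), the first (0.0837) or second (0.091) naive RH6 library, or the second naive RH5 library (0.0705).

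The ADAMTS enzymes that cut cartilage oligomeric matrix protein differed in opposite directions. ADAMTS12 (ENSG00000151388) had 68.1 and 58.8 CPM in naive RH6 and 54.0 and 50.9 CPM in naive RH5, against 43.0 CPM in primed RH6 and 36.4 CPM in primed RH5. ADAMTS7 (ENSG00000136378) had 10.003 and 9.47 CPM in naive RH6 and 8.18 and 10.1 CPM in naive RH5, against 19.1 CPM in primed RH6 and 19.8 CPM in primed RH5. Neither gene's groups overlapped. The log2 fold change was 0.54 ± 0.11 for ADAMTS12 (adjusted p = 0.0142) and -1.04 ± 0.15 for ADAMTS7 (adjusted p = 0.00377). ADAMTS12 did not pass without the first naive RH5 library (adjusted p = 0.0584).

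The procollagen N-proteinases, which remove the amino-terminal propeptide of fibrillar collagens, had 1 of 3 called. ADAMTS14 (ENSG00000138316) had 0.28 and 0.441 CPM in naive RH6 and 1.27 and 0.745 CPM in naive RH5, against 1.34 CPM in primed RH6 and 2.09 CPM in primed RH5. The higher naive RH5 library came close to the primed RH6 library, and the log2 fold change was -1.40 ± 0.41 (adjusted p = 0.0454). Leaving out primed RH6 (adjusted p = 0.147), the first (0.109) or second (0.111) naive RH6 library, or the first (0.0533) or second (0.116) naive RH5 library ended this call. ADAMTS2 ranged from 3.60 to 6.995 CPM in naive libraries and had 12.7 and 6.07 CPM in primed libraries, and ADAMTS3 ranged from 8.15 to 10.1 CPM in naive libraries and had 9.97 and 7.87 CPM in primed libraries. Both overlapped between the states, with adjusted p = 0.141 for ADAMTS2 and 0.805 for ADAMTS3.

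ADAMTS13 (ENSG00000160323), which cuts von Willebrand factor, had 4.41 and 2.79 CPM in naive RH6 and 5.29 and 4.62 CPM in naive RH5, against 8.96 CPM in primed RH6 and 8.16 CPM in primed RH5. Its substrate gene, VWF, had 0.63 to 1.41 CPM in naive libraries and 10.1 and 7.94 CPM in primed libraries (log2 fold change -3.26 ± 0.31, adjusted p = 0.000766). Enzyme and substrate were thus both lower in naive cells, with no overlap of libraries. The enzyme's log2 fold change was -1.02 ± 0.26 (adjusted p = 0.0268), and ADAMTS13 did not pass without primed RH6 (adjusted p = 0.0769), the first (0.0581) or second (0.0603) naive RH6 library, or the first (0.056) or second (0.0703) naive RH5 library.

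Of the other 6 ADAMTS genes, ADAMTS19 was higher and ADAMTS10 lower in naive cells. ADAMTS10 (ENSG00000142303), an enzyme of fibrillin microfibrils that is mutated in Weill-Marchesani syndrome, had 2.10 and 1.76 CPM in naive RH6 and 3.74 and 3.80 CPM in naive RH5, against 11.6 CPM in primed RH6 and 11.8 CPM in primed RH5. ADAMTS19 (ENSG00000145808), which is mutated in a heart valve disease, had 71.4 and 67.4 CPM in naive RH6 and 127 and 123 CPM in naive RH5, against 49.1 CPM in primed RH6 and 58.3 CPM in primed RH5. No naive library of either gene reached into the primed range. The log2 fold change was -2.11 ± 0.25 for ADAMTS10 (adjusted p = 0.00171) and 0.79 ± 0.15 for ADAMTS19 (adjusted p = 0.0106), and for ADAMTS19 it was 0.53 without the primed RH5 library, still called. ADAMTS6, ADAMTS16, ADAMTS17 and ADAMTS18 were not called, with log2 fold changes of 0.22, -1.79, 0.08 and 0.74.

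The inhibitors had 2 of 4 genes higher in naive cells and 0 lower. TIMP3 (ENSG00000100234), the matrix-bound TIMP that also inhibits ADAMTS enzymes, had 73.7 and 60.9 CPM in naive RH6 and 44.7 and 46.3 CPM in naive RH5, against 33.6 CPM in primed RH6 and 29.2 CPM in primed RH5. TIMP4 (ENSG00000157150), best known from the heart, had 4.69 and 4.70 CPM in naive RH6 and 4.73 and 5.81 CPM in naive RH5, against 1.4 CPM in primed RH6 and 2.46 CPM in primed RH5. Both were separated between the states, with log2 fold changes of 0.82 ± 0.14 for TIMP3 (adjusted p = 0.00719) and 1.39 ± 0.27 for TIMP4 (adjusted p = 0.0106). TIMP2 (ENSG00000035862), the bridge between MMP14 and proMMP2, had 27.6 and 20.6 CPM in naive RH6 and 29.7 and 32.3 CPM in naive RH5, against 41.6 CPM in primed RH6 and 33.4 CPM in primed RH5. TIMP1 (ENSG00000102265), which binds proMMP9, had 6.72 and 7.56 CPM in naive RH6 and 11.8 and 14.5 CPM in naive RH5, against 8.03 CPM in primed RH6 and 6.07 CPM in primed RH5. TIMP2 lay below both primed libraries in every naive library without passing the test (-0.46 ± 0.19, adjusted p = 0.128), and TIMP1 overlapped between the states (0.43 ± 0.31, adjusted p = 0.346). Without the primed RH6 library TIMP1 was called higher (1.12, adjusted p = 0.00338), without the primed RH5 library its sign turned (-0.14), and without the primed RH5 library TIMP2 was called lower (-0.76, adjusted p = 0.0049).

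Levels of different members were set on one scale as CPM per kilobase of exon, with exon lengths from GENCODE 29 (GRCh38), which is not the annotation the authors counted with. In naive cells MMP2 ranked first of the 33 members with a length, at 40.0 ± 11.4 CPM per kb (SD, n = 4), followed by MMP15 at 25.6 ± 2.26, MMP14 at 24.4 ± 3.90, ADAMTS19 at 18.0 ± 5.94, ADAMTS1 at 16.6 ± 4.70 and TIMP3 at 12.3 ± 2.97. MMP2 lay above MMP15 in all 4 naive libraries, while MMP15 and MMP14 were within their spread and changed places between libraries. By the mean of the primed libraries MMP15 ranked first, at 13.9 CPM per kb in primed RH6 and 19.7 in primed RH5. MMP14, at 7.15 in primed RH6 and 13.0 in primed RH5, and ADAMTS19, at 9.08 in primed RH6 and 10.8 in primed RH5, came next and changed places between the libraries. MMP2 stood at rank 10, with 4.68 in primed RH6 and 4.00 in primed RH5. Such levels between genes depend on the annotation as well as on the cells.

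**Figure D2:**
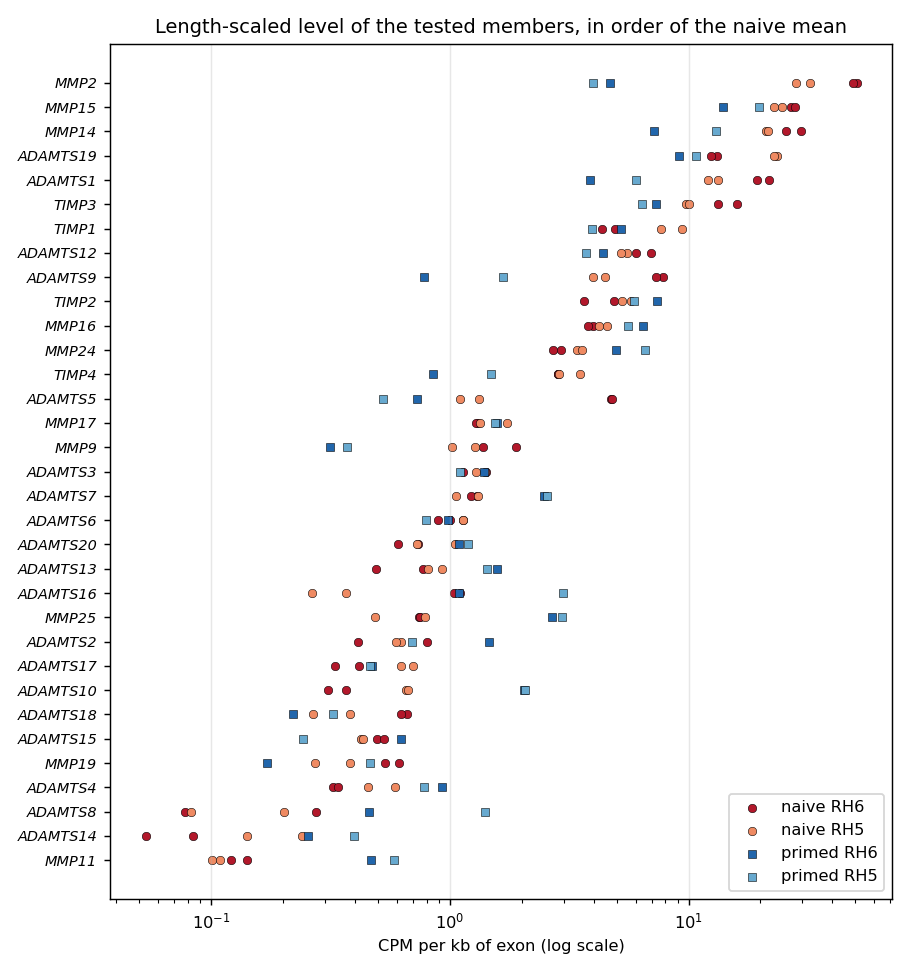
Level of each tested member as CPM per kb of exon on a log scale, 1 point per library, with genes in order of their mean over the 4 naive libraries. Circles are naive and squares are primed libraries; MMP2 is at the top with 28.1 to 50.7 in naive and 4.00 and 4.68 in primed libraries, and MMP28 is left out because its identifier had no length.

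Summed by family on this scale, all 3 sums stood higher in naive libraries, for the TIMPs through TIMP3. A sum follows its most abundant genes and does not show that most members of a family were higher. The 10 MMP genes added up to 118 and 113 CPM per kb in naive RH6 and 89.6 and 84.4 in naive RH5, against 42.3 in primed RH6 and 54.7 in primed RH5. Without MMP2 the sums were 67.5 and 64.6 in naive RH6 and 57.2 and 56.3 in naive RH5, against 37.7 in primed RH6 and 50.7 in primed RH5, so the groups stayed apart by a smaller margin. Most of that naive sum was MMP15 and MMP14, at means of 25.6 and 24.4 in naive and 16.8 and 10.1 in primed libraries. No MMP sum was taken without these genes, and of the 11 tested MMPs 5 were called higher and 4 lower over both lines. The 19 ADAMTS genes added up to 61.5 and 60.7 CPM per kb in naive RH6 and 56.0 and 55.8 in naive RH5, against 33.9 in primed RH6 and 39.1 in primed RH5. ADAMTS19 and ADAMTS1 were the largest parts in naive libraries, at means of 18.0 and 16.6 in naive and 9.93 and 4.94 in primed libraries. No ADAMTS sum was taken without them, and of the 19 genes 5 were called higher and 6 lower over both lines. The 4 TIMP genes added up to 28.1 and 24.6 CPM per kb in naive RH6 and 25.5 and 28.7 in naive RH5, against 20.8 in primed RH6 and 17.7 in primed RH5. No family's naive and primed sums overlapped, and no test was made on the sums. Without TIMP3 the other TIMPs did overlap, with 12.1 and 11.4 in naive RH6 and 15.8 and 18.6 in naive RH5, against 13.4 in primed RH6 and 11.3 in primed RH5.

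**Figure D3:**
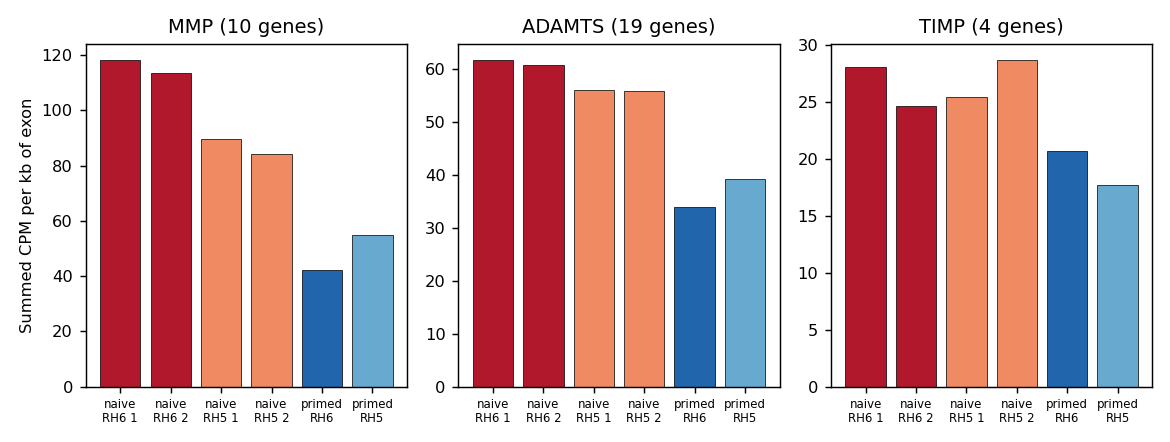
Summed CPM per kb of exon of the tested MMP (10 genes), ADAMTS (19 genes) and TIMP (4 genes) members, 1 bar per library, each panel with its own axis from 0. The 4 naive bars exceed both primed bars in each panel, with 84.4 to 118 against 42.3 and 54.7 for MMPs.

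The state effect was next taken within each line, in a fit with 1 mean per group which takes the single primed library to be as variable as the naive duplicates. In RH6, 14 of the 34 tested members were higher and 11 lower in naive cells, where 33.6% of all genes were called. In RH5, 11 were higher and 7 lower, where 33.5% of all genes were called. The 10 members higher in both lines made up 71.4% of those higher in RH6 and 90.9% of those higher in RH5. The 5 lower in both made up 45.5% of those lower in RH6 and 71.4% of those lower in RH5. Shares of this kind were not computed over all genes, so it cannot be said whether those of the members are unusual. The sign of the state effect was the same in both lines for 28 of the 34 tested members, or 82.4%, and for 67.9% of all genes tested. TIMP2 was called in RH6 (-0.79 ± 0.17, adjusted p = 0.00557) with -0.11 ± 0.18 in RH5 (adjusted p = 0.683), but the difference between the lines itself was not called (adjusted p = 0.108).

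RH6 minus RH5, the state effects differed between the lines for 9 of the 34 members, 7 positive and 2 negative, where 12% of all genes were called, 5.86% positive and 6.16% negative. For ADAMTS9 the effect was 3.28 ± 0.17 in RH6 and 1.34 ± 0.15 in RH5 on the log2 scale, a difference of 1.94 ± 0.22 (adjusted p = 0.000382). ADAMTS5 had 2.70 ± 0.19 in RH6 and 1.20 ± 0.21 in RH5, a difference of 1.5 ± 0.28 (adjusted p = 0.00753). ADAMTS1, which like ADAMTS5 lies on chromosome 21, had 2.42 ± 0.15 in RH6 and 1.07 ± 0.14 in RH5, a difference of 1.34 ± 0.19 (adjusted p = 0.00157). In these 3 versican- and aggrecan-cutting enzymes the effect was positive in both lines and larger in RH6. The same held for MMP14, which had 1.94 ± 0.14 in RH6 and 0.72 ± 0.13 in RH5, a difference of 1.23 ± 0.18 (adjusted p = 0.00218). MMP15 followed with a difference of 0.71 ± 0.17 (adjusted p = 0.0212), and MMP2 had a difference of 0.49 ± 0.19 that did not pass (adjusted p = 0.137).

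ADAMTS16, known from gonad and kidney in rodents, had the largest difference among the members, 3.20 ± 0.35 (adjusted p = 0.000367). It had 6.09 and 6.46 CPM in naive RH6 and 1.55 and 2.16 CPM in naive RH5, against 6.42 CPM in primed RH6 and 17.5 CPM in primed RH5. Naive and primed RH6 were level, with a log2 fold change of -0.04 ± 0.24, while naive RH5 lay far below primed RH5, with -3.23 ± 0.25 (adjusted p = 6.77e-06). MMP19 showed 1.73 ± 0.46 in RH6 and -0.51 ± 0.41 in RH5 on the log2 scale, a difference of 2.23 ± 0.62 (adjusted p = 0.043), which did not pass without the first naive RH5 library (adjusted p = 0.0591).

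The negative differences were in TIMP1 and ADAMTS19. For TIMP1 the log2 effect was -0.17 ± 0.22 in RH6 and 1.11 ± 0.23 in RH5, a difference of -1.28 ± 0.32 (adjusted p = 0.0281). ADAMTS19 had 0.50 ± 0.12 in RH6 and 1.10 ± 0.12 in RH5, a difference of -0.60 ± 0.17 (adjusted p = 0.0437), which did not pass without the first naive RH5 library (adjusted p = 0.0678). TIMP1 was above primed cells in RH5 but not in RH6, and ADAMTS19 was above them in both lines and further so in RH5. Each line had 1 primed library and its own passage numbers, so line, passage and that library cannot be told apart. DESeq2 did not call the differences of TIMP1 (adjusted p = 0.165), ADAMTS19 (0.147) or MMP19 (0.294), and without the first naive RH6 library 4 members were negative, TIMP2 among them (adjusted p = 0.00381).

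**Figure D4:**
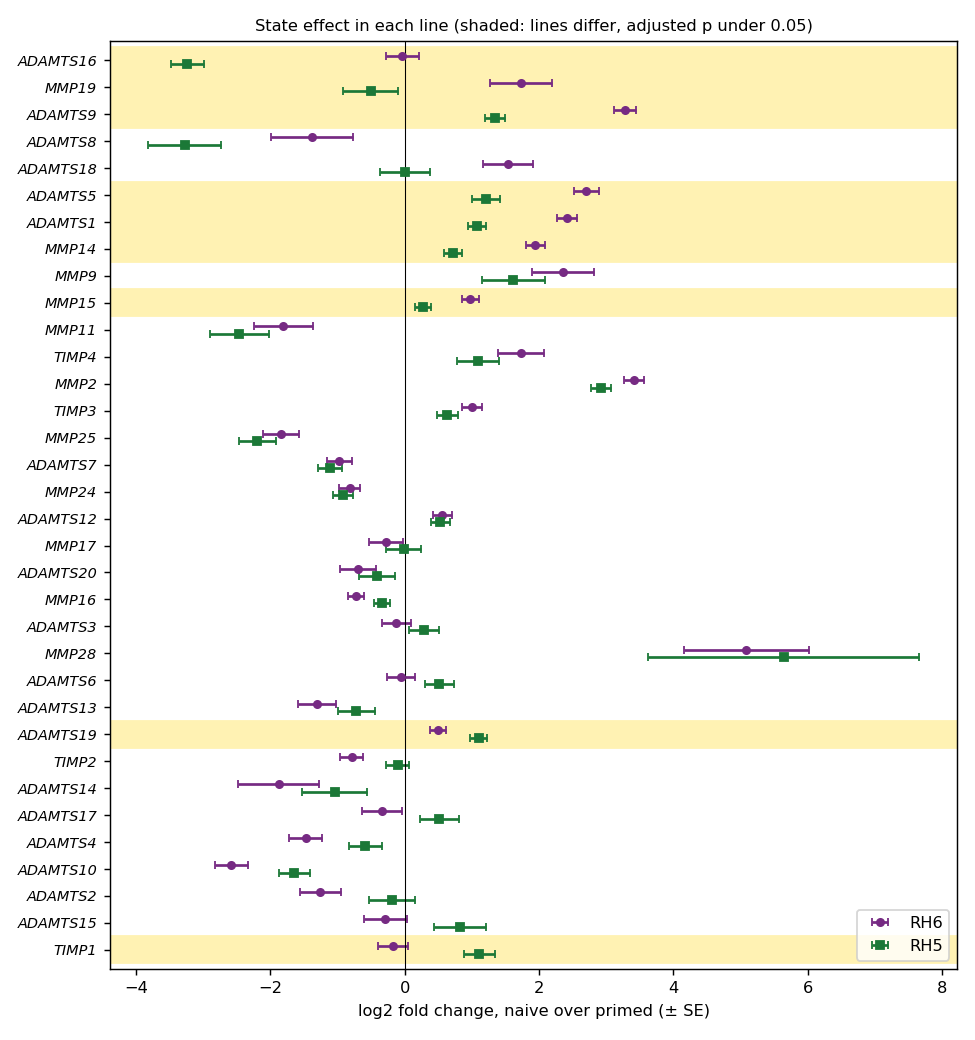
Log2 fold change of naive over primed cells in RH6 (circles) and RH5 (squares) for the 34 tested members, with bars of 1 SE from the fit with 1 mean per group, in order of the difference between the lines. Shaded rows are the 9 members whose difference was called, from ADAMTS16 at 3.20 to TIMP1 at -1.28.

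Naive RH6 and naive RH5 were compared directly, the comparison with duplicates on both sides. Of the 34 members, 9 were higher and 4 lower in naive RH6, where 25.5% of all genes were called. The log2 fold change was 1.97 ± 0.14 for ADAMTS5 (adjusted p = 6.78e-06) and 1.76 ± 0.24 for ADAMTS16 (adjusted p = 0.000481). MMP28 stood at 2.54 ± 0.51 (adjusted p = 0.00499), but it had passed the filter on low counts through the 2 naive RH6 libraries alone, so that its difference was a condition of being tested here too. MMP2, ADAMTS1, ADAMTS9 and TIMP3 were also higher in naive RH6, with log2 fold changes of 0.72, 0.70, 0.83 and 0.57. In each of these 7 genes both naive RH6 libraries were above both naive RH5 libraries. ADAMTS18, an enzyme known from eye development, had 4.41 and 4.19 CPM in naive RH6 and 2.54 and 1.79 CPM in naive RH5 (0.98 ± 0.28, adjusted p = 0.029), and it did not pass without the first naive RH6 library (0.0651) or the second naive RH5 library (0.207).

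The members lower in naive RH6 were ADAMTS10 (-0.96 ± 0.24, adjusted p = 0.0162), TIMP1 (-0.88 ± 0.18, adjusted p = 0.0052), ADAMTS19 (-0.85 ± 0.09, adjusted p = 0.000148) and ADAMTS17 (-0.83 ± 0.24, adjusted p = 0.0296). Leaving out the second naive RH6 library ended the calls of ADAMTS10 (adjusted p = 0.0605) and ADAMTS17 (0.116), and leaving out the first naive RH5 library ended that of ADAMTS17 (0.109). MMP14 was called at 0.37 ± 0.10 (adjusted p = 0.025), and not without the first naive RH6 library (0.126) or the first (0.109) or second (0.0904) naive RH5 library. DESeq2 did not call ADAMTS10 (0.118), ADAMTS17 (0.248), ADAMTS18 (0.258) or MMP14 (0.0741) here. Summed fibroblast markers also differed between these libraries, with 1365 and 1127 CPM in naive RH6 and 683 and 726 CPM in naive RH5, and their part in the differences was not tested.

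Several members share their locus with a gene on the opposite strand, and no source used here gives the strand setting of the counting. SYN3, opposite TIMP3, had 161 to 180 counts in naive libraries and 793 and 551 in primed libraries, the other way round from TIMP3. ADAMTS19-AS1 had 121 and 112 counts in naive RH6 and 222 and 240 in naive RH5, against 122 in primed RH6 and 126 in primed RH5. MORF4L1, opposite ADAMTS7, had 17661 counts in all, against 1084 for ADAMTS7. SYN1 lies opposite TIMP1, SYN2 opposite TIMP4, REXO4 opposite ADAMTS13, CHCHD10 opposite MMP11, MMP24OS opposite MMP24 and MMP25-AS1 opposite MMP25. How far reads of these partners entered the members' counts was not tested.

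Other genes of the same proteolytic system were followed from lists, with the same fit over both lines. In the plasminogen system, which activates proMMPs, 2 of 8 tested genes were higher in naive cells and 1 lower. ANXA2 (1.83) and S100A10 (1.33), which form a plasminogen receptor on the cell surface, were higher, and KLKB1, plasma prekallikrein, was lower (-1.90). Neither PLAT, or tPA (1.14 ± 0.45, adjusted p = 0.111), nor PLAU, or uPA (-0.40 ± 0.19, adjusted p = 0.17), passed the test.

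Among 18 other activators, inhibitors and receptors, 6 were higher and 4 lower. CD44, which docks MMP9 and MMP14 at the surface, had 58.1 and 46.4 CPM in naive RH6 and 26.3 and 26.3 CPM in naive RH5, against 10.1 CPM in primed RH6 and 14.2 CPM in primed RH5 (1.58 ± 0.33, adjusted p = 0.0145). The convertases PCSK7 and PCSK6 were higher by log2 fold changes of 1.38 and 1.22. SPOCK1 and SPOCK2, or testicans, proteoglycans that affect MMP activation, were lower by -2.94 and -1.77, and RECK, a membrane-anchored inhibitor of MMPs, was lower by -0.54.

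Related protease families moved both ways. Of 13 tested ADAM genes, which encode membrane-bound sheddases and relatives, 3 were higher, led by ADAM19 (2.63), ADAM9 (0.67) and ADAM17 (0.51), and 4 lower, led by ADAM28 (-3.25), ADAM11 (-1.55) and ADAM22 (-1.36). Of 6 ADAMTS-like genes, which resemble ADAMTS enzymes without the protease domain, 0 were higher and 3 lower, namely PAPLN (-2.57), ADAMTSL3 (-1.34) and THSD4 (-0.79). Of 5 tolloid and meprin proteases and their enhancers, BMP1 (1.04) and PCOLCE2 (0.74) were higher and PCOLCE (-1.86) and TLL1 (-1.41) lower.

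Of 22 tested matrix substrates, 11 were higher and 6 lower in naive cells. Of the 7 ADAMTS genes whose enzymes cut proteoglycans, 3 were higher, 2 lower and 2 not called. VCAN, versican, a proteoglycan cut by ADAMTS enzymes, had 2754 and 2649 CPM in naive RH6 and 2647 and 2900 CPM in naive RH5, against 987 CPM in primed RH6 and 1712 CPM in primed RH5. All naive libraries lay above both primed libraries (1.06 ± 0.19, adjusted p = 0.00802). Fibrillar collagens COL3A1 (4.33) and COL2A1 (3.05) and the adhesive phosphoprotein SPP1 (3.82) led the genes that were higher, and neurocan NCAN (-4.16), VWF (-3.26) and aggrecan ACAN (-1.36) led those that were lower. Of the 15 AP-1, ETS and related factors that are known to bind MMP promoters, 9 were higher, led by FOSL2 (1.65), RUNX1 (1.59) and JUN (1.58), and 1 lower, ETV1 (-1.42).

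Fibroblasts are known for high levels of many of these proteases and matrix genes. Of 16 tested fibroblast markers, 8 were higher in naive cells, among them LUM (2.74) and POSTN (2.49). The 3 that were lower were SFRP1 (-3.92), PRRX1 (-1.52) and THY1 (-1.37). DCN had 26 counts in all libraries and FAP had 10. Their summed level was 683 to 1365 CPM in naive and 1819 and 1305 CPM in primed libraries, most of the primed sum being SFRP1, which primed stem cells also express. Without SFRP1 the sum was 637 to 1233 CPM in naive and 350.0 and 339.7 CPM in primed libraries, so that every naive library lay above both primed libraries. Collagen genes made up most of the sum without SFRP1, and THY1, also listed as a primed marker, was kept in it. The order of the states thus depends on which markers are summed. Trophoblast markers were higher for 6 of 10 and lower for 1, with sums of 240 to 317 CPM in naive and 118 and 76.2 CPM in primed libraries. Endoderm markers were lower for 2 of 8 and higher for 0, and endothelial markers higher for 2 and lower for 3 of 5. Macrophage markers summed to 0.917 to 1.79 CPM in naive and 0.803 and 1.16 CPM in primed libraries, and PTPRC had 0 counts in every naive library. The part of such cells, and of the mesoderm genes given above, in the members' differences was not tested.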

How the data were processed

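A table deposited by the authors holds the unnormalized count of reads for 63677 rows in all 6 libraries. The submitters' processing notes list STAR 2.4.0a, Subread with featureCounts 1.4.5-p1, DESeq2 and FastQC, and the builds GRCh37.p5 and hg19, without saying how each was used. Per the labels' protocols, libraries came from a stranded total RNA kit and paired-end reads, while the molecule field says polyA RNA. Which annotation and which strand setting the counting used is not given in the sources used here.

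Counts were tested with edgeR 4.0.16 in R 4.3.3 (quasi-likelihood F-test, two-sided, TMM normalization, Benjamini-Hochberg adjustment over all genes tested). The 19434 genes tested passed filterByExpr by state (minimum count 10, minimum total 15). Naive against primed over both lines was fitted on the 6 libraries with a term for the line (3 residual degrees of freedom). The spread there includes the difference between the lines. The other comparisons were taken from a model with 1 mean per group (2 residual degrees of freedom), whose spread came from the naive duplicates. A standard error is the log2 fold change divided by the square root of F. CPM used TMM-scaled totals. The code was tested on simulated data.

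All members are given by role. Values in every library went to TIMP1 to TIMP4, MMP2, MMP9, MMP14, the members called over both lines, and the 6 largest called differences of each comparison between the lines. From each pathway list up to 3 rises and up to 3 falls were named. The members and lists were chosen with earlier results of these data known. Alternatives were another size factor, DESeq2 1.42.0, no filter, leaving out libraries, no line term, summed duplicates and a replicate block. GENCODE 29 (GRCh38) gave exon lengths, RefSeq (GRCh38.p14) gave promoters, and no coordinates of the counted genes are given. The naive duplicates differed by more than counting noise (chi-square per gene 9.22 in RH6 and 5.76 in RH5) and were kept apart. MMP23A and another row of MMP12 were not typed as protein-coding and are no members.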

Additional observations from a re-analysis of the deposited data

Results flagged for a closer look

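The state effect, naive over primed on the log2 scale, differed between RH6 and RH5 for 9 members by edgeR's test of that difference. The difference, RH6 minus RH5, was 3.2 for ADAMTS16, 2.23 for MMP19, 1.94 for ADAMTS9, 1.5 for ADAMTS5, 1.34 for ADAMTS1, 1.23 for MMP14 and 0.71 for MMP15. It was -0.6 for ADAMTS19 and -1.28 for TIMP1. Each line had 1 primed library, so a value of that library and a property of the line cannot be told apart.

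In 2 of the members examined, 1 of the 4 naive libraries stood apart from the other 3. For MMP25 the second naive RH5 library, at 2.01 CPM, was lowest, and its gap to the nearest library took up 0.864 of the range. For TIMP4 the same library, at 5.81 CPM, was highest, and its gap took up 0.965 of the range. Only the 22 members called over both lines, with TIMP1 and TIMP2, were examined in this way. Chance alone marks about 1 in 20 such groups.

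A row of MMP12 that is typed as a processed transcript, and so lies outside the members, had 10 counts over the 4 naive libraries and 0 in the primed libraries. Of these, 8 were in the first naive RH5 library.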

How the results depend on the processing

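Over both lines, 12 members were higher and 10 lower. Summing the naive duplicates of each line, which leaves 4 samples and fewer degrees of freedom, gave 1 higher and 2 lower, and the members that stayed called under every alternative were MMP2, MMP25 and ADAMTS10. Over all genes that setting called 1127, against 4996. Leaving out 1 library in turn gave 5 to 12 lower members. TIMP1 changed sign, to -0.14, without the primed RH5 library, and was called at 1.12 without the primed RH6 library. In the difference between the lines, where 7 members were positive and 2 negative, DESeq2 called 0 negative (2 at an unadjusted p under 0.05, against 7 by edgeR), and leaving out 1 naive library gave 2 to 4 negative. ADAMTS16, ADAMTS9, ADAMTS5, ADAMTS1, MMP14 and MMP15 kept their calls under every alternative. In naive RH6 against naive RH5, where 4 members were lower, DESeq2 called 2 and leaving out 1 naive library gave 2 to 6. A replicate block on the library numbers gave 11 higher and 7 lower members, and 7402 genes in all against 4952. With 2 pairs, whose deviations correlated at 0.14, the numbers were not taken to pair the libraries. All other counts of members lay within 1.5 times the values reported. The cause of these changes was not tested. The least deeply counted of the called members were MMP28, ADAMTS14, MMP11 and ADAMTS8, with 85 to 159 counts in all.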

Other observations

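MMP23A, a pseudogene row beside MMP23B, had 1 count over the naive libraries and 4 over the primed libraries.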
